A study of Rattus norvegicus with 18 samples.

Results

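Genes of mitosis and DNA replication were examined in the lungs of 18 male F344 rats, in which 50 of the 52 listed genes were found among the 22081 named entries of the deposited tables. The genes were chosen by name from textbook cell-cycle functions, with earlier results of these data known. Their counts beside all genes are therefore a description. E2f1 and Ccnb2 were not found by name and are not analysed here. All 50 passed the filter on low counts at each time point. They were grouped by role as G1/S regulators (6 genes), replication (9), mitotic entry (8), kinetochore and checkpoint (12), chromosomal passenger, spindle and chromosome genes (12) and anaphase (3).

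A cell that prepares to divide first switches on the E2F transcription factors and cyclin E, then loads and fires the MCM helicase to copy its DNA, and then activates cyclin B with Cdk1 to enter mitosis. In mitosis the kinetochore attaches chromosomes to the spindle, the checkpoint delays anaphase until all are attached, and Cdc20 then triggers the destruction of securin and cyclin B. In the adult lung few cells divide, and transcripts of these genes are therefore a common readout of how many cells are in cycle.

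The treated rats received MWNT-7, a multiwalled carbon nanotube (MWCNT), as repeated intratracheal instillations of 0.5 mg/kg every 4 weeks, begun at 9 weeks of age, and the control rats received the vehicle on the same schedule. Lungs of 3 control and 3 treated rats were taken at each of 3 time points, called Years 0.5, 1 and 2 by the time since the first instillation, and each rat was sampled once. RNA came from small pieces of the accessory lobe, and tissue with tumor nodules seen at necropsy was left out by the authors. Age therefore rises with the length of exposure in both groups, and age, any difference in library preparation between time points and, in treated rats, cumulative dose cannot be told apart. Total counts per rat ranged from 13297643 to 21130757, and the deepest library was MWCNT-treated rat 2 of Year 0.5. Between 6 and 2306 reads were counted for a listed gene in a rat, and 44 of the 50 had at least 10 counts in every rat. Levels are given as TPM, which scale reads by transcript length and library total. Differences were tested on the counts with edgeR's quasi-likelihood test, with false discovery rates (FDR) over all genes tested. A gene was called upregulated at an FDR below 0.05 with a log2 fold change above 1.

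At Year 0.5, 34 of the 50 genes were upregulated in the MWCNT-treated rats, compared with 6.07% of all genes tested. At Year 1, 21 were upregulated (6.13% of all genes), and at Year 2, 17 were (8.17%). By FDR alone, 44, 42 and 38 were higher at Years 0.5, 1 and 2, whereas 20.2%, 21.6% and 25.2% of all genes were. Aurkb was the exception in direction, being lower by FDR at Years 1 and 2, where 19.6% and 24.0% of all genes were lower, and no listed gene was lower at Year 0.5 (18.6% of all genes, with 0 of the 50 also lower at an unadjusted p below 0.05 in the edgeR test). In either direction, 38.8%, 41.2% and 49.2% of all genes passed the FDR, so that the background itself grew with time. The median log2 fold change was 1.32 at Year 0.5, 0.94 at Year 1 and 0.82 at Year 2, corresponding to folds of 2.49, 1.92 and 1.77, while the median of all genes was -0.02, 0.00 and -0.01. Without control rat 1 of Year 2, whose column header carries a different suffix from those of the other rats, 11 genes were upregulated at Year 2, and with library size in place of TMM 8 were. Because whole lung tissue was measured, more dividing cells and more of these transcripts per cell cannot be told apart.

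The rise was present in most individual rats. In TMM-normalised counts scaled to library size (CPM), all 3 treated rats lay above all 3 control rats of the same year for 44, 43 and 42 of the 50 genes at Years 0.5, 1 and 2 (26.2%, 28.0% and 30.9% of all genes). The reverse, all treated rats below all control rats, was seen for 0, 1 and 1 of the 50 (25.5%, 26.9% and 28.9% of all genes), the 1 being Aurkb. For 34 genes all 9 treated rats lay above all 9 control rats whatever the year, as was the case for 13.6% of all genes. Among these were 7 of the 9 replication genes and 10 of the 12 kinetochore and checkpoint genes. Within the Year 0.5 treated group, rat 2 held the highest value for 40 of the 50 genes, and without this rat 29 genes were upregulated and the median log2 fold change at Year 0.5 was 1.14.

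**Figure D1:**
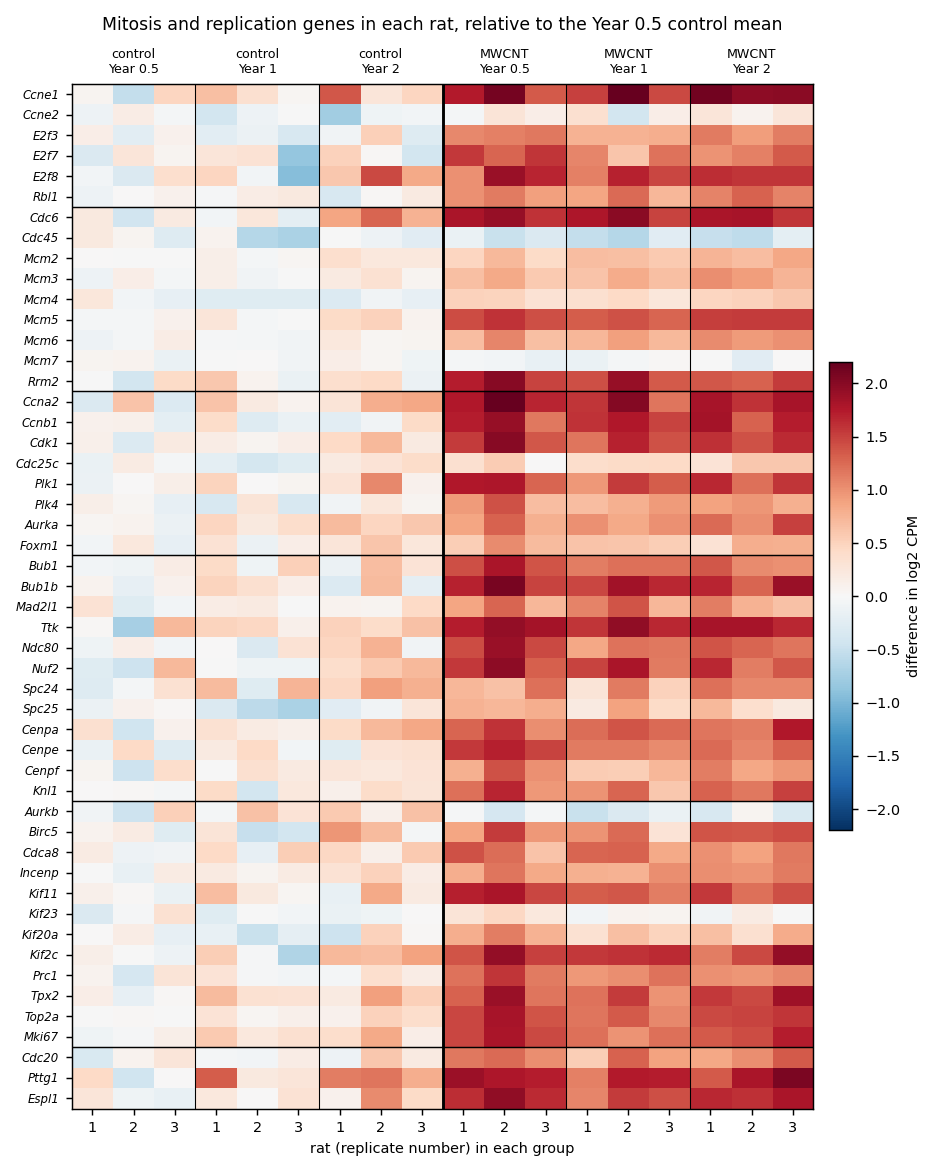
Heat map of the 50 genes (rows, grouped by role in the order of the text) in each of the 18 rats (columns, 3 per group); color is the difference in log2 CPM from the mean of the Year 0.5 control rats. The treated columns on the right are red for most rows, while Ccne2, Cdc45, Mcm7, Aurkb and Kif23 stay pale or blue, and the Year 2 control columns are somewhat warmer than those of Year 0.5.

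Of the 50 genes, 10 were upregulated at all 3 years, 16 at 2 years, 10 at 1 year and 14 at no year. The 10 lasting genes were Ccne1, Mcm5, Rrm2, Ccna2, Ccnb1, Cdk1, Bub1b, Ttk, Top2a and Espl1, so that every role group contributed at least 1. No gene was upregulated at Year 2 without being so at Year 0.5, and 8 were upregulated at Year 0.5 alone. By FDR alone 37 genes were higher at all 3 years. The shares of all genes with these patterns over the years were not computed, so the counts have no background beside them. The 5 genes that were higher by FDR at no year were Ccne2, Cdc45, Mcm7, Kif23 and Aurkb.

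The role groups are given one by one, as their medians took different courses. The median log2 fold change of the replication genes was 0.70 at each of the 3 years. It went from 1.36 through 1.03 to 0.88 for mitotic entry, from 1.46 through 1.06 to 0.85 for kinetochore and checkpoint genes, from 1.25 through 0.85 to 0.81 for passenger, spindle and chromosome genes and from 1.77 through 0.94 to 0.84 for the 3 anaphase genes. For G1/S regulators it was 1.37, 1.10 and 1.08. Upregulated at Years 0.5, 1 and 2 were 9, 7 and 4 of 12 kinetochore and checkpoint genes and 6, 4 and 3 of 8 mitotic entry genes. The counts were 8, 3 and 4 of 12 for passenger, spindle and chromosome genes, 3, 1 and 1 of 3 for anaphase and 5, 3 and 3 of 6 for G1/S regulators, so that these did not drop further after Year 1. For replication they were 3, 3 and 2 of 9. Without rat 2 of the Year 0.5 treated group, the Year 0.5 medians were 1.15 for mitotic entry, 1.28 for the kinetochore and checkpoint and 0.62 for replication. The difference between role groups was not tested, because the lists were chosen with earlier results known.

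**Figure D2:**
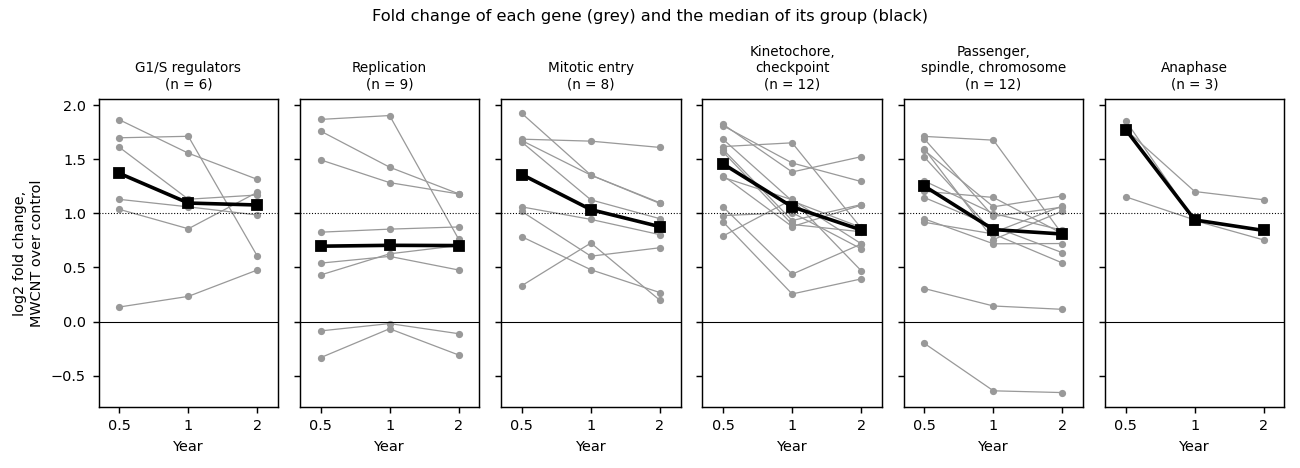
Log2 fold change of MWCNT-treated over control rats (vertical axis) at Years 0.5, 1 and 2 (horizontal axis) for each gene (grey) and the median of its role group (black); the dotted line marks the log2 fold change of 1 used for calling. The black line is flat near 0.70 for replication and slopes down in the mitotic groups, with Aurkb and Cdc45 as the lowest grey lines.

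The test of fading is the treatment-by-time interaction, that is, the difference between the Year 2 and Year 0.5 effects in one model of all 18 rats. No listed gene passed FDR below 0.05 (1.31% of all genes did), and none passed with DESeq2. The Year 2 effect was the smaller one for 44 of the 50 genes and for 7345 of all 14843 genes. The median difference was -0.42 on the log2 scale, against 0.00 over all genes. The 50 genes were measured in the same rats, so these counts of genes are not independent observations. At an unadjusted edgeR p below 0.05 the effect was smaller for 10 genes and larger for 0, against 6.30% and 7.55% of all genes. The 10 were Cdc6, Bub1, Mki67, Ndc80, Top2a, Pttg1, Kif2c, Espl1, Ccna2 and Cdk1, and the lowest FDR, that of Cdc6, was 0.152. All 8 mitotic entry, all 12 kinetochore and checkpoint and all 12 passenger, spindle and chromosome genes had the smaller effect at Year 2, as did 5 of the 9 replication genes. Without rat 2 of the Year 0.5 treated group the median difference was -0.29.

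The other steps were smaller. From Year 0.5 to Year 1 the effect was smaller for 37 genes with a median difference of -0.26. At an unadjusted edgeR p below 0.05 it was smaller for 7 genes and larger for 0, against 4.48% and 4.01% of all genes. From Year 1 to Year 2 it was smaller for 33 genes with a median difference of -0.09. For 3 of the 50 (6.0%) it was smaller and for 0 larger at that level, against 7.57% and 8.91% of all genes. No listed gene passed FDR in either step with edgeR (0% and 0.478% of all genes) or with DESeq2.

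The smaller effects at Year 2, none of which passed FDR, lay more on the control side than on the treated side. In control rats, 44 of the 50 genes were higher at Year 2 than at Year 0.5, as were 7309 of all 14843 genes. The median log2 difference was 0.33, against -0.004 over all genes. Of the 44, 17 had an unadjusted edgeR p below 0.05, as did 11.1% of all genes in the higher direction. Of these, 2 passed FDR (6.65% of all genes did, and 0.633% with an absolute log2 difference above 1), namely Cdc6, which loads the MCM helicase on DNA, at 1.05 ± 0.27 (FDR 0.0286), and the spindle pole kinase Aurka at 0.60 ± 0.16 (FDR 0.0321). In MWCNT-treated rats, the median difference was -0.07 with 32 genes lower and 18 higher, and none passed FDR (13.5% of all genes did, and 2.34% with an absolute log2 difference above 1) with edgeR, with 1 gene lower (Bub1) and 1 higher (Mcm2) at an unadjusted p below 0.05, against 13.5% and 14.2% of all genes. Cdc6 was the 1 gene with a control difference above 1 as well, and this call was lost when any 1 of the Year 0.5 control rats, or rat 1 or 2 of the Year 2 control rats, was left out. The control difference was the larger one in size for 37 of the 50 genes, and the share of all genes was not computed. The treated median turned to 0.05 without rat 2 of Year 0.5, whereas the control median stayed between 0.24 and 0.37 when each rat was left out in turn. These contrasts share their rats with the interaction and are not separate support for it.

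The mean over the 50 genes in each rat gave the same picture. On the log2 CPM scale it was 2.16 ± 0.07 (SD, n = 3) in the control rats and 3.33 ± 0.17 in the treated rats at Year 0.5, 2.24 ± 0.13 and 3.14 ± 0.11 at Year 1, and 2.49 ± 0.13 and 3.27 ± 0.07 at Year 2. The lowest treated rat of any year (3.06) was above the highest control rat of any year (2.63). Control rats of Year 2 (2.39 to 2.63) lay above those of Year 0.5 (2.09 to 2.23), while the treated ranges of the same years, 3.20 to 3.34 and 3.19 to 3.52, overlapped.

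**Figure D3:**
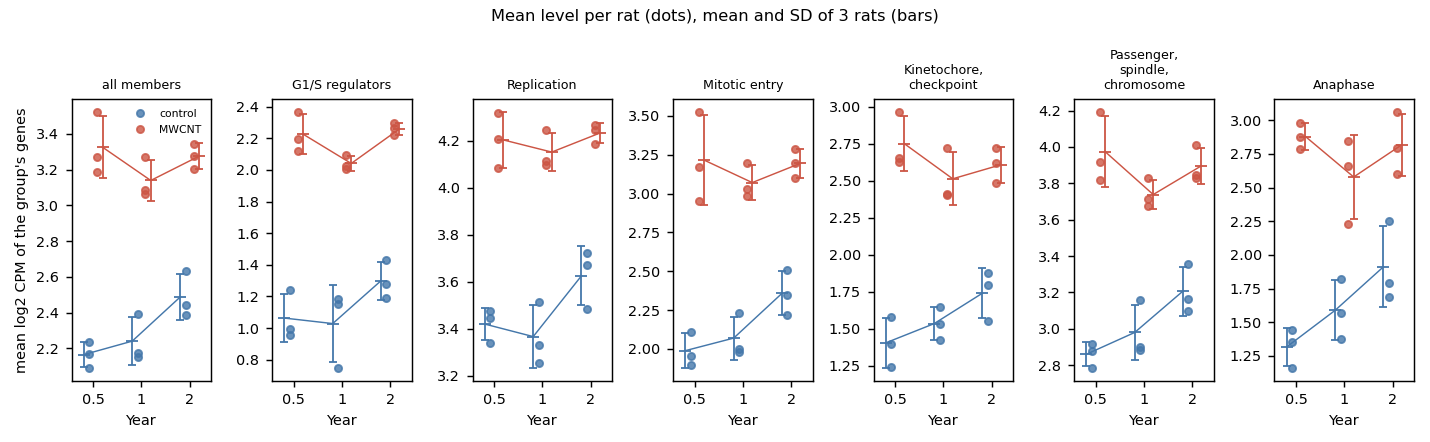
Mean log2 CPM of all 50 genes and of each role group (vertical axes, not starting at 0 and scaled per panel) at each year; dots are single rats, bars the mean and SD of 3 rats, blue control and red MWCNT-treated. In the panel of all genes the control mean rises from 2.16 to 2.49 between Year 0.5 and Year 2, and the treated mean stays between 3.14 and 3.33.

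**Figure D4:**
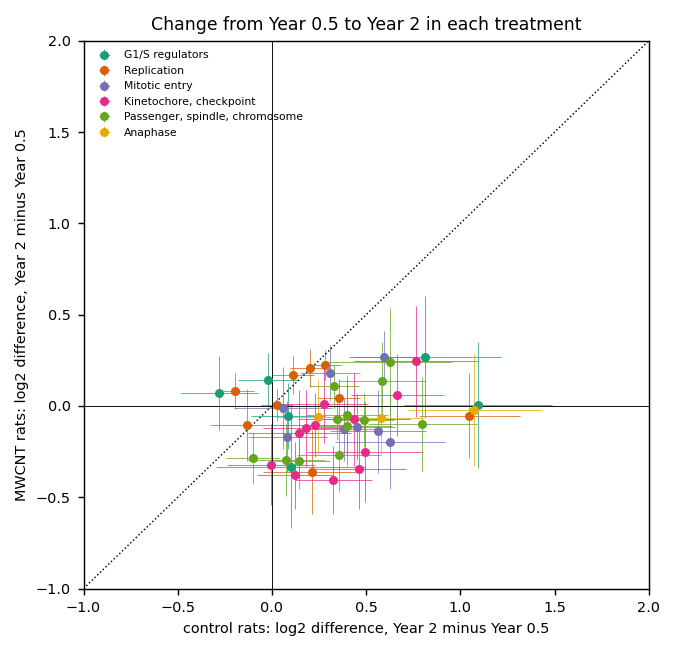
Log2 difference between Year 2 and Year 0.5 in control rats (horizontal axis) and in MWCNT-treated rats (vertical axis) for each of the 50 genes, colored by role, with standard errors; the dotted line marks equal change. Most points lie right of 0 (44 genes) and below the line (44 genes), and the treated differences scatter around 0.

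Promoter letters are shown for genes of both kinds of pattern, since replication genes are known as E2F targets and late mitotic genes as targets of the DREAM and MuvB complexes, which bind the CHR element often found near CCAAT boxes. RefSeq promoters (GRCr8, from 250 bases before to 50 after the start) matched 40 of the 50 genes. They were searched on both strands for the E2F letters TTTCGCGC or TTTGGCGC, the CHR letters TTTGAA or TTCGAA, and CCAAT. E2F letters were found in 7 of the 40 (17.5%, against 0.892% of 27457 genes), among them 5 of 6 replication genes and 0 of 12 kinetochore and checkpoint genes. CHR letters were found in 25 of the 40 (62.5%, against 21% of all genes), among them 9 of 12 kinetochore and checkpoint genes, 3 of 3 anaphase genes and 2 of 6 replication genes. CCAAT was found in 28 of the 40 (70.0%, against 39.6%). The 150 bases before the start are printed for 8 genes with the matched letters in capitals. They are the replication genes Mcm6 and Mcm7, then Cdk1, which carries both E2F and CHR letters. Mcm7 also carries both, with its CHR letters at -241 to -236 from the start, outside the printed bases. Next are Cdc20, Top2a and Mki67 with CHR letters, and last Cdc25c and Kif23, which carry CHR letters and were upregulated at no year.
Mcm6, chr13:42404353-42404502, minus strand: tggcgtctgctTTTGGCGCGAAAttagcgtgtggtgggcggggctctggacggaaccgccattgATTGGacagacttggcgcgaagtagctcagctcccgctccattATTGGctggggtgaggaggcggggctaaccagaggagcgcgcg
Mcm7, chr12:22163179-22163328, minus strand: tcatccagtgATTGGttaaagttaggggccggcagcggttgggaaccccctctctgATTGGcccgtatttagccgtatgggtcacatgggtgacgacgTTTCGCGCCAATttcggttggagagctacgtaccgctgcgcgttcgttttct
Cdk1, chr20:19265143-19265292, plus strand: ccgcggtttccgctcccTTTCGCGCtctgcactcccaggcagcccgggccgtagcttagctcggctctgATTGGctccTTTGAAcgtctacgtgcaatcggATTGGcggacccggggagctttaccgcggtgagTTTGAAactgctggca
Cdc20, chr5:137255800-137255949, minus strand: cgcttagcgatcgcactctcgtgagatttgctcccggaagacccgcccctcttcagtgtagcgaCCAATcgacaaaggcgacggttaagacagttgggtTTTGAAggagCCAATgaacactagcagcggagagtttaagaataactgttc
Top2a, chr10:84473094-84473243, minus strand: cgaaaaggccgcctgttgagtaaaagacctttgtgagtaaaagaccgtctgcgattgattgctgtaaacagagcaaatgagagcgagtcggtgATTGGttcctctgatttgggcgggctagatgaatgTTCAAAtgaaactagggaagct
Mki67, chr1:199952594-199952743, minus strand: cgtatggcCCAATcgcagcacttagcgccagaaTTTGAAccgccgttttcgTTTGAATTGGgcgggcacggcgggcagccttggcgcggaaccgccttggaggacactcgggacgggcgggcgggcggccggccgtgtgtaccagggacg
Cdc25c, chr18:26630293-26630442, minus strand: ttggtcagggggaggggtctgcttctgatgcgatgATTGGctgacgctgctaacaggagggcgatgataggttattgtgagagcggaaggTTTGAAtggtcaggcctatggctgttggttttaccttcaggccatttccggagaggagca
Kif23, chr8:71320585-71320734, minus strand: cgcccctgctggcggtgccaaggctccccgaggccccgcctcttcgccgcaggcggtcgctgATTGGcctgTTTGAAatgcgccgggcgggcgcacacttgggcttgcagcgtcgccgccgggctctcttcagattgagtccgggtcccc

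Matches overlap in places: the E2F letters of Mcm7 run into a CCAAT box, those of Mcm6 lie on both strands of one stretch, and the second CHR match of Mki67 runs into a reversed CCAAT. A match of letters is a description of the sequence and not a measured binding site. Mcm7 carried E2F letters as did Mcm6 but did not pass the FDR at any year, and Kif23 carried CHR and CCAAT letters as did Cdc20 and did not either.

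Among the G1/S regulators, which govern the step into DNA synthesis, 5 of 6 were upregulated at Year 0.5 and 3 at each later year. Rbl1, which encodes the pocket protein p107, was the most abundant of them, with 4.41, 4.8 and 5.18 TPM in control and 8.85, 9.53 and 8.29 TPM in treated rats at Year 0.5. At Year 1 it was 4.67, 5.5 and 5.72 TPM in control and 7.8, 9.45 and 7.08 TPM in treated rats, and at Year 2 3.58, 4.96 and 5.61 TPM in control and 8.6, 10.3 and 8.91 TPM in treated rats. All 9 treated values were above all 9 control values, and log2 fold changes were 1.04, 0.86 and 1.20 (SE 0.13, 0.16 and 0.16) at Years 0.5, 1 and 2, with FDRs of 0.000424, 0.00321 and 0.000329.

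E2f8, an atypical E2F that represses E2F targets, showed the largest loss of effect in this group. Its levels were 0.548, 0.438 and 0.771 TPM in control and 1.14, 2.14 and 1.87 TPM in treated rats at Year 0.5, and 0.823, 0.561 and 0.258 TPM in control and 1.2, 1.71 and 1.56 TPM in treated rats at Year 1. By Year 2 they were 0.877, 1.77 and 1.11 TPM in control and 1.63, 1.64 and 1.64 TPM in treated rats, and the groups overlapped in TPM through control rat 2, whereas in TMM-normalised CPM all 3 treated rats were above all 3 control rats at each year. In edgeR its log2 fold changes were 1.70, 1.71 and 0.60 (SE 0.36, 0.42 and 0.32) at the 3 years, with FDRs of 0.00581, 0.0107 and 0.144. The Year 2 effect was lower by 1.09 ± 0.52 on the log2 scale (unadjusted edgeR p 0.0523, FDR 0.368), with 6 to 62 counts per rat behind it. The cyclin E gene Ccne1 had log2 fold changes of 1.87, 1.56 and 1.31 with FDRs of 0.00423, 0.00783 and 0.0134, the activator E2f3 log2 fold changes of 1.13, 1.06 and 0.98 with FDRs of 0.00179, 0.00228 and 0.0101, and E2f7, the partner of E2f8, log2 fold changes of 1.61, 1.13 and 1.17 with FDRs of 0.0035, 0.0599 and 0.0284.

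Ccne2, the second cyclin E gene, passed the FDR at no year. It measured 4.41, 5.28 and 4.65 TPM in control and 4.18, 5.17 and 4.84 TPM in treated rats at Year 0.5, then 3.53, 4.52 and 4.85 TPM in control and 5.41, 2.94 and 4.67 TPM in treated rats at Year 1, and 2.65, 4.52 and 4.64 TPM in control and 4.76, 4.33 and 4.99 TPM in treated rats at Year 2. In TPM the groups overlapped at all 3 years, whereas in CPM they overlapped at Years 0.5 and 1 and the treated rats were all above the control rats at Year 2. The log2 fold changes were 0.13, 0.23 and 0.48 (SE 0.16, 0.22 and 0.21) at Years 0.5, 1 and 2, with FDRs of 0.542, 0.409 and 0.09. The rat Rnor_6.0 entry of Ccne2 (chr5:24434872-24446406) overlaps Ints8 on the other strand by 521 bases, and since strand-specific counting is not stated, reads there cannot be assigned with certainty.

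Of the 9 replication genes, 7 were higher by FDR at each year, while Cdc45 and Mcm7 were so at none. Mcm2 to Mcm7 encode the 6 subunits of the replicative helicase, which act in equal numbers. Mcm2 was 14.4, 14.1 and 14.3 TPM in control and 18, 20.8 and 17.5 TPM in treated rats at Year 0.5, then 15.5, 14.2 and 15.1 TPM in control and 20.4, 18.6 and 18.8 TPM in treated rats at Year 1, and 17.7, 17.1 and 17 TPM in control and 20.01, 19.9 and 22.3 TPM in treated rats at Year 2. Every treated rat was above every control rat of its year, but the rise was small, as the log2 fold changes were 0.54, 0.60 and 0.48 (SE 0.09, 0.09 and 0.08) at Years 0.5, 1 and 2, with FDRs of 0.00217, 0.000765 and 0.0015.

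Mcm3 was 10.4, 12.3 and 10.9 TPM in control and 16.1, 17.8 and 15.2 TPM in treated rats at Year 0.5, then 12.2, 10.8 and 11.3 TPM in control and 15.4, 16.3 and 15.7 TPM in treated rats at Year 1, and 12.3, 14.3 and 11.9 TPM in control and 19, 18.3 and 16.3 TPM in treated rats at Year 2. Mcm6 was 10.5, 11 and 12.9 TPM in control and 16.7, 21.6 and 16.7 TPM in treated rats at Year 0.5, then 11.1, 11.4 and 11 TPM in control and 16.9, 17.7 and 16.7 TPM in treated rats at Year 1, and 12.9, 12 and 12.1 TPM in control and 19.6, 19.1 and 19.9 TPM in treated rats at Year 2. For both genes all 9 treated values were above all 9 control values. The log2 fold changes of Mcm3 were 0.70, 0.70 and 0.69 (SE 0.11, 0.10 and 0.11) and those of Mcm6 0.83, 0.85 and 0.87 (SE 0.14, 0.09 and 0.09), so that their effects at Years 0.5 and 2 differed by less than 1 SE, with FDRs at each year between 5.99e-05 and 0.00154.

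Mcm4 had the largest gain of effect in the group. It was 17.7, 14.1 and 13.2 TPM in control and 19.3, 18.6 and 17 TPM in treated rats at Year 0.5, where the groups overlapped in TPM through control rat 1. At Years 1 and 2 they did not, with 12.2, 12.7 and 12.6 TPM in control and 17, 16.5 and 15.7 TPM in treated rats at Year 1, and 11.5, 14.3 and 13.3 TPM in control and 17.2, 18.4 and 19.3 TPM in treated rats at Year 2. In CPM all 9 treated values were above all 9 control values. Tested on counts, Mcm4 differed between treated and control rats by 0.43, 0.63 and 0.70 on the log2 scale (SE 0.12, 0.09 and 0.09) at Years 0.5, 1 and 2, with FDRs of 0.0198, 0.000627 and 0.000205, and the interaction was 0.28 ± 0.14 (unadjusted edgeR p 0.0641, FDR 0.399).

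Mcm5 was the one MCM gene called upregulated at all 3 years. It rose from 5.99 ± 0.369 to 15.2 ± 0.847 TPM (SD, n = 3) at Year 0.5 and from 7.6 ± 1.13 to 14.9 ± 0.444 TPM at Year 2, with log2 fold changes of 1.49, 1.28 and 1.18 with FDRs of 1.79e-05, 6.32e-05 and 6.23e-05. Its mean level was the lowest of the 6 subunits in TPM in each group, and nearer to the others in the treated rats.

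Mcm7 had the highest level of the 6 and passed the FDR at no year. It was 36.1, 35.8 and 31.4 TPM in control and 30.4, 29.5 and 28.2 TPM in treated rats at Year 0.5, then 33.9, 35.5 and 33.1 TPM in control and 27.7, 27.4 and 30.8 TPM in treated rats at Year 1, and 36.3, 35.7 and 32.6 TPM in control and 28.5, 24.9 and 30.03 TPM in treated rats at Year 2. In TPM every treated rat was below every control rat of its year. After TMM normalization the groups overlapped and the log2 fold changes were -0.09, -0.02 and -0.11 (SE 0.08, 0.08 and 0.10) at Years 0.5, 1 and 2, with FDRs of 0.435, 0.865 and 0.377. TPM carry no TMM factor, and when counts were scaled by library size alone the median of all genes was -0.12, -0.13 and -0.18 on the log2 scale at the 3 years.

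**Figure D5:**
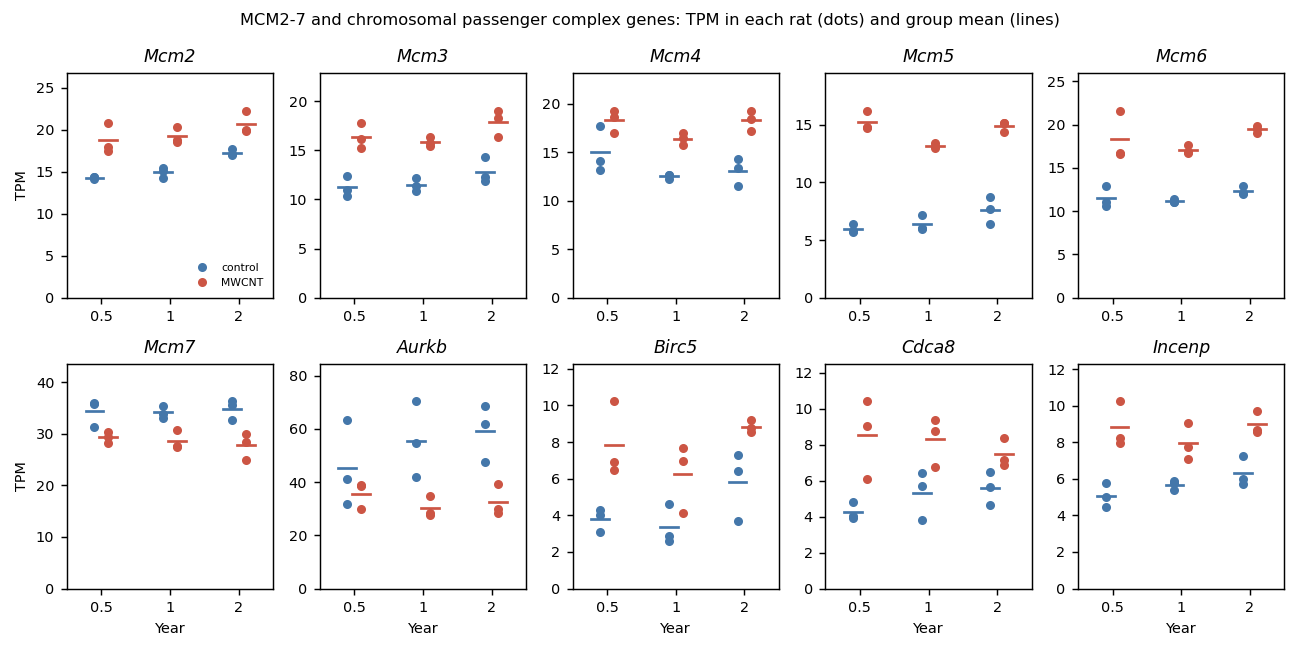
TPM in each rat (dots) and group mean (lines) at each year for the 6 MCM helicase genes and the 4 chromosomal passenger complex genes, blue control and red MWCNT-treated, each axis starting at 0. Mcm5 and Mcm6 separate widely, Mcm7 and Aurkb are the most abundant of their complexes and have lower treated means in TPM, and Birc5, Cdca8 and Incenp are higher.

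Cdc6, the MCM loader, was 0.709, 0.425 and 0.709 TPM in control and 2.09, 2.24 and 1.82 TPM in treated rats at Year 0.5, then 0.568, 0.748 and 0.518 TPM in control and 2.03, 2.16 and 1.62 TPM in treated rats at Year 1, and 1.11, 1.61 and 1.1 TPM in control and 1.91, 2 and 1.69 TPM in treated rats at Year 2. All 9 treated values were above all 9 control values, while the 3 Year 2 control rats were above the 3 control rats of Year 0.5. Log2 fold changes of Cdc6 were 1.87, 1.90 and 0.76 (SE 0.29, 0.28 and 0.27) in order of time, with FDRs of 0.00109, 0.000945 and 0.0396. The difference of effects, -1.10 ± 0.35, had the lowest FDR among the 50 genes. Rrm2, a subunit of the enzyme that makes deoxynucleotides, had log2 fold changes of 1.76, 1.43 and 1.18 with FDRs of 0.000653, 0.00212 and 0.00142.

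Cdc45, which joins the active helicase, passed the FDR at no year. It was 4.19, 3.72 and 2.98 TPM in control and 2.96, 2.26 and 2.64 TPM in treated rats at Year 0.5, then 3.75, 2.37 and 2.24 TPM in control and 2.22, 1.9 and 2.68 TPM in treated rats at Year 1, and 3.42, 3.39 and 3.07 TPM in control and 2.1, 2.1 and 2.68 TPM in treated rats at Year 2. In TPM the treated rats were the lower ones without overlap at Years 0.5 and 2, but in CPM the groups overlapped at every year and the log2 fold changes were -0.33, -0.07 and -0.31 (SE 0.17, 0.22 and 0.15) at Years 0.5, 1 and 2, with FDRs of 0.147, 0.831 and 0.122. In Rnor_6.0 the Cdc45 entry (chr11:86329012-86358453) contains the whole of Cldn5 on the other strand, a gene of endothelial tight junctions with a mean of 9572 counts against 144 for Cdc45. Cldn5 was lower in the treated rats, with log2 fold changes of -0.84, -0.84 and -1.41 and FDRs of 0.00154, 0.000485 and 5.36e-05, and its part in the Cdc45 counts was not tested.

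Mitotic entry genes turn on Cdk1 and shape the early spindle. Cdk1, the mitotic kinase itself, was 6.64, 4.9 and 7.09 TPM in control and 16.4, 22.4 and 14.8 TPM in treated rats at Year 0.5. It was 6.86, 6.56 and 6.96 TPM in control and 12.6, 16.7 and 14.6 TPM in treated rats at Year 1, and 7.99, 10.3 and 7.16 TPM in control and 15.9, 14.2 and 16.8 TPM in treated rats at Year 2, so that all 9 treated values were above all 9 control values. The effect of treatment on Cdk1 was 1.67, 1.35 and 1.10 on the log2 scale (SE 0.21, 0.17 and 0.17) at Years 0.5, 1 and 2, with FDRs of 0.000442, 0.000361 and 0.000644. The effect at Year 2 differed from that at Year 0.5 by -0.57 ± 0.27 (unadjusted edgeR p 0.0494, FDR 0.358).

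Ccnb1, the cyclin that activates Cdk1, was the gene of the group whose effect changed least. It was 3.14, 3.14 and 2.53 TPM in control and 9.12, 10.3 and 6.21 TPM in treated rats at Year 0.5, then 3.87, 2.42 and 2.67 TPM in control and 8.08, 8.47 and 7.52 TPM in treated rats at Year 1, and 2.37, 2.81 and 4.01 TPM in control and 8.98, 6.43 and 8.66 TPM in treated rats at Year 2. No treated value overlapped a control value at any year, and the log2 fold changes were 1.69, 1.67 and 1.61 (SE 0.25, 0.22 and 0.25) at Years 0.5, 1 and 2, with FDRs of 0.000874, 0.000559 and 0.000701. The effects at Years 2 and 0.5 differed by -0.07 ± 0.35.

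Ccna2, the cyclin of S phase and G2, had the largest drop of effect in the group. It was 1.73, 3.41 and 1.77 TPM in control and 6.99, 9.82 and 6.67 TPM in treated rats at Year 0.5, then 3.42, 2.61 and 2.39 TPM in control and 6, 7.57 and 4.5 TPM in treated rats at Year 1, and 2.59, 3.94 and 4.09 TPM in control and 6.64, 5.87 and 6.9 TPM in treated rats at Year 2. The groups did not overlap at any year, and the log2 fold changes were 1.92, 1.35 and 1.09 (SE 0.30, 0.26 and 0.20) at Years 0.5, 1 and 2, with FDRs of 0.00112, 0.00323 and 0.00168. The difference of effects was -0.82 ± 0.39 (unadjusted edgeR p 0.049, FDR 0.357). The Ccna2 entry lies within Exosc9 on the other strand, and Exosc9 had log2 fold changes of -0.03, 0.00 and -0.07, with FDRs of 0.838, 0.983 and 0.58.

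Aurka, the spindle pole kinase, was 5.15, 5.19 and 4.59 TPM in control and 8.34, 11 and 7.94 TPM in treated rats at Year 0.5, then 6.86, 5.92 and 6.66 TPM in control and 8.95, 7.32 and 8.91 TPM in treated rats at Year 1, and 7.77, 7.04 and 7.64 TPM in control and 9.98, 8.8 and 12.3 TPM in treated rats at Year 2. The control rats of both later years were above those of Year 0.5, and each treated group was above its control group. In edgeR its log2 fold changes were 1.02, 0.60 and 0.68 (SE 0.18, 0.13 and 0.16) at the 3 years, with FDRs of 0.00203, 0.00668 and 0.00586. Plk1, which drives centrosome maturation and mitotic entry, had log2 fold changes of 1.66, 1.12 and 0.95 with FDRs of 0.000284, 0.00338 and 0.0147, and Plk4, which starts centriole duplication, had log2 fold changes of 1.06, 0.94 and 0.80 with FDRs of 0.00528, 0.00758 and 0.00449. The Plk4 entry shares 5758 bases with Mfsd8 on the other strand.

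Foxm1, the transcription factor of the G2/M program, was higher by FDR at Years 0.5 and 1. It was 3.41, 4.17 and 3.16 TPM in control and 4.72, 6.6 and 5.33 TPM in treated rats at Year 0.5, then 4.43, 3.33 and 4.06 TPM in control and 4.93, 4.49 and 4.59 TPM in treated rats at Year 1, and 4.09, 5.52 and 4.32 TPM in control and 3.7, 5.42 and 5.33 TPM in treated rats at Year 2. The groups overlapped at Year 2 in both TPM and CPM, and the log2 fold changes were 0.78, 0.48 and 0.27 (SE 0.19, 0.16 and 0.18) at Years 0.5, 1 and 2, with FDRs of 0.0106, 0.0353 and 0.257. Cdc25c, the phosphatase that activates Cdk1, was 2.5, 3.13 and 2.69 TPM in control and 3.21, 3.65 and 2.56 TPM in treated rats at Year 0.5, then 2.35, 2.15 and 2.35 TPM in control and 3.22, 3.06 and 3.35 TPM in treated rats at Year 1, and 3.03, 3.49 and 3.76 TPM in control and 2.86, 3.65 and 3.62 TPM in treated rats at Year 2. Its groups were apart at Year 1 alone in both TPM and CPM, and the log2 fold changes were 0.33, 0.73 and 0.20 (SE 0.21, 0.16 and 0.17) at Years 0.5, 1 and 2, with FDRs of 0.234, 0.00754 and 0.376.

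All 12 kinetochore and checkpoint genes were higher by FDR at Year 0.5, 11 at Year 1 and 10 at Year 2. Mad2l1, a checkpoint protein that holds back anaphase, was 6.16, 4.05 and 4.75 TPM in control and 8.27, 10.8 and 7.61 TPM in treated rats at Year 0.5, then 5.48, 5.84 and 5 TPM in control and 9.54, 10.8 and 7.29 TPM in treated rats at Year 1, and 4.96, 5.23 and 6.79 TPM in control and 9.15, 7.32 and 6.74 TPM in treated rats at Year 2. In TPM its groups touched at Year 2, where the highest control rat was just above the lowest treated rat, whereas in CPM all 9 treated values were above all 9 control values. Tested on counts, Mad2l1 differed between treated and control rats by 0.98, 1.01 and 0.67 on the log2 scale (SE 0.23, 0.21 and 0.22) at Years 0.5, 1 and 2, with FDRs of 0.00963, 0.00466 and 0.0284.

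Ndc80, the kinetochore protein that grips microtubules, showed the largest loss in the group. It was 0.947, 1.14 and 0.986 TPM in control and 2.63, 3.56 and 2.69 TPM in treated rats at Year 0.5, then 1.01, 0.822 and 1.32 TPM in control and 1.7, 2.01 and 2.11 TPM in treated rats at Year 1, and 1.39, 1.82 and 0.983 TPM in control and 2.33, 2.23 and 2.06 TPM in treated rats at Year 2. The groups did not overlap at any year, but the log2 fold changes were 1.68, 1.11 and 0.87 (SE 0.23, 0.26 and 0.27) at Years 0.5, 1 and 2, with FDRs of 0.000647, 0.00806 and 0.0247. The difference of effects was -0.81 ± 0.33 (unadjusted edgeR p 0.0274, FDR 0.285). Its partner Nuf2 had log2 fold changes of 1.62, 1.65 and 0.86 with FDRs of 0.00653, 0.00105 and 0.0176, and Spc25, of the same complex, had log2 fold changes of 0.79, 1.13 and 0.47 with FDRs of 0.0151, 0.0114 and 0.186.

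Spc24, the remaining subunit of that complex, was higher by FDR at Year 0.5 and not at the later years. It was 2.22, 2.67 and 3.6 TPM in control and 4.34, 4 and 6.26 TPM in treated rats at Year 0.5, then 4.67, 2.33 and 4.96 TPM in control and 3.08, 5.32 and 3.63 TPM in treated rats at Year 1, and 3.77, 5.53 and 5.08 TPM in control and 5.7, 5.26 and 5.27 TPM in treated rats at Year 2. The groups overlapped at Year 1 in both TPM and CPM. At Year 2 they overlapped in TPM, whereas in CPM the treated rats were all above the control rats. The mean control level was 2.83 ± 0.7, 3.99 ± 1.45 and 4.79 ± 0.916 TPM (SD, n = 3) at Years 0.5, 1 and 2. Log2 fold changes of Spc24 were 0.92, 0.25 and 0.39 (SE 0.31, 0.38 and 0.26) in order of time, with FDRs of 0.0439, 0.613 and 0.245. Its interaction of -0.52 ± 0.45 had an unadjusted edgeR p of 0.261 and an FDR of 0.661.

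Knl1, the scaffold on which the checkpoint proteins assemble, had the smallest loss in the group. It was 1.08, 1.09 and 1.05 TPM in control and 2.3, 3.13 and 1.95 TPM in treated rats at Year 0.5, then 1.44, 0.829 and 1.3 TPM in control and 1.92, 2.18 and 1.45 TPM in treated rats at Year 1, and 1.11, 1.44 and 1.34 TPM in control and 2.25, 2.11 and 2.7 TPM in treated rats at Year 2. All 9 treated values exceeded all 9 control values, and the log2 fold changes were 1.35, 0.88 and 1.08 (SE 0.21, 0.25 and 0.16) at Years 0.5, 1 and 2, with FDRs of 0.00115, 0.0221 and 0.000605. The checkpoint kinases were higher by FDR at each year. Bub1 had log2 fold changes of 1.57, 0.90 and 0.83 with FDRs of 0.000161, 0.00333 and 0.011, Bub1b had log2 fold changes of 1.82, 1.38 and 1.52 with FDRs of 0.000311, 0.00053 and 0.00295, and Ttk had log2 fold changes of 1.81, 1.47 and 1.29 with FDRs of 0.00375, 0.00183 and 0.0021. Bub1 was the one gene of the 50 with a lower treated level at Year 2 than at Year 0.5 at an unadjusted p below 0.05 (-0.41 ± 0.19). The centromere genes Cenpa, Cenpe and Cenpf were higher by FDR at every year, with log2 fold changes from 0.44 (Cenpf at Year 1) to 1.59 (Cenpe at Year 0.5).

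The chromosomal passenger complex joins the kinase Aurkb with Incenp, Birc5 (survivin) and Cdca8 (borealin) to correct attachments and complete division. Aurkb was 41.2, 31.6 and 63.2 TPM in control and 38.8, 29.8 and 38.5 TPM in treated rats at Year 0.5, then 41.8, 70.2 and 54.6 TPM in control and 27.5, 28.5 and 34.6 TPM in treated rats at Year 1, and 61.8, 47.4 and 68.6 TPM in control and 28.3, 39.1 and 29.8 TPM in treated rats at Year 2. It was thus several times as abundant as its partners in TPM, and lower in every treated rat than in every control rat at Years 1 and 2. The effect of treatment on Aurkb was -0.20, -0.64 and -0.66 on the log2 scale (SE 0.21, 0.16 and 0.15) at Years 0.5, 1 and 2, with FDRs of 0.486, 0.0124 and 0.0066. No other entry of the table overlaps Aurkb (chr10:55626741-55634991).

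Incenp, the scaffold of the complex, went the other way. It was 4.99, 4.44 and 5.76 TPM in control and 7.97, 10.2 and 8.25 TPM in treated rats at Year 0.5, then 5.75, 5.42 and 5.86 TPM in control and 7.72, 7.07 and 9.08 TPM in treated rats at Year 1, and 6.02, 7.27 and 5.71 TPM in control and 8.58, 8.68 and 9.72 TPM in treated rats at Year 2. The groups were apart at every year, and the log2 fold changes were 0.95, 0.72 and 0.72 (SE 0.15, 0.12 and 0.13) at Years 0.5, 1 and 2, with FDRs of 0.00131, 0.00161 and 0.00139. Birc5 had log2 fold changes of 1.20, 1.15 and 0.81 with FDRs of 0.00944, 0.0286 and 0.0408, and Cdca8 had log2 fold changes of 1.15, 0.88 and 0.64 with FDRs of 0.00551, 0.0162 and 0.0257, so that the 3 partners were higher by FDR at each year while Aurkb was not.

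Mki67, the gene of the Ki-67 antigen used to count cycling cells, was 3.08, 3.24 and 3.63 TPM in control and 8.39, 10.3 and 8.39 TPM in treated rats at Year 0.5. It was 4.9, 4.01 and 4.32 TPM in control and 6.82, 5.45 and 6.78 TPM in treated rats at Year 1, and 4.15, 6 and 3.73 TPM in control and 7.01, 7.74 and 9.54 TPM in treated rats at Year 2. The treated rats were above the control rats at every year, and the gap was widest at Year 0.5. In edgeR its log2 fold changes were 1.59, 0.76 and 1.02 (SE 0.11, 0.11 and 0.17) at the 3 years, with FDRs of 2.38e-05, 0.000876 and 0.00106. The effect differed between Year 2 and Year 0.5 by -0.57 ± 0.22 (unadjusted edgeR p 0.0186, FDR 0.245), with a change of 0.49 ± 0.16 in control rats and -0.08 ± 0.15 in treated rats.

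Top2a, the topoisomerase that untangles chromosomes, was 4.45, 4.56 and 4.5 TPM in control and 11.5, 14.1 and 10.9 TPM in treated rats at Year 0.5, then 5.53, 4.78 and 4.97 TPM in control and 9.09, 9.54 and 8.34 TPM in treated rats at Year 1, and 4.59, 6.52 and 6.02 TPM in control and 10.3, 11 and 11.6 TPM in treated rats at Year 2. All 9 treated values were above all 9 control values, and the log2 fold changes were 1.58, 1.06 and 1.16 (SE 0.12, 0.12 and 0.11) at Years 0.5, 1 and 2, with FDRs of 2.94e-05, 0.000184 and 4.51e-05. Prc1, which bundles the central spindle, was 9.32, 6.79 and 10.9 TPM in control and 18.4, 23.6 and 18 TPM in treated rats at Year 0.5, then 10.8, 8.93 and 8.68 TPM in control and 15.4, 14.8 and 18.1 TPM in treated rats at Year 1, and 8.16, 11.7 and 9.9995 TPM in control and 14.9, 15.1 and 16 TPM in treated rats at Year 2. It too separated all treated from all control rats, and the log2 fold changes were 1.30, 1.00 and 0.84 (SE 0.17, 0.13 and 0.12) at Years 0.5, 1 and 2, with FDRs of 0.000562, 0.000379 and 0.000411.

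Kif2c, a motor that depolymerises microtubules at the centromere, had the largest drop of effect in the group. It was 1.12, 0.993 and 0.932 TPM in control and 2.55, 3.67 and 2.8 TPM in treated rats at Year 0.5, then 1.49, 1.02 and 0.623 TPM in control and 2.8, 2.67 and 2.96 TPM in treated rats at Year 1, and 1.64, 1.69 and 1.97 TPM in control and 1.92, 2.52 and 3.56 TPM in treated rats at Year 2. The Year 2 control rats were above the Year 0.5 control rats and in TPM overlapped the treated rats of Year 2 by 1 rat of each group, whereas in CPM all 9 treated values were above all 9 control values. Tested on counts, Kif2c differed between treated and control rats by 1.71, 1.68 and 0.81 on the log2 scale (SE 0.25, 0.31 and 0.27) at Years 0.5, 1 and 2, with FDRs of 0.000835, 0.00266 and 0.0328. The effect difference was -0.90 ± 0.39 (unadjusted edgeR p 0.0329, FDR 0.307).

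Of the central spindle motors that work with Prc1, Kif23 passed the FDR at no year and Kif20a at Years 0.5 and 1. Kif23 was 5.35, 6.55 and 8.55 TPM in control and 7.4, 8.16 and 7.2 TPM in treated rats at Year 0.5, then 5.53, 6.81 and 6.57 TPM in control and 5.72, 5.84 and 6.17 TPM in treated rats at Year 1, and 5.76, 6.35 and 6.82 TPM in control and 5.26, 6.59 and 5.77 TPM in treated rats at Year 2. The groups overlapped at each year in both TPM and CPM, and the log2 fold changes were 0.30, 0.14 and 0.11 (SE 0.17, 0.12 and 0.13) at Years 0.5, 1 and 2, with FDRs of 0.191, 0.37 and 0.508. Kif20a was 4.49, 4.98 and 3.93 TPM in control and 7.12, 8.75 and 6.96 TPM in treated rats at Year 0.5, then 3.9, 3.22 and 3.94 TPM in control and 5.02, 5.84 and 5.58 TPM in treated rats at Year 1, and 3.07, 6.41 and 4.61 TPM in control and 5.89, 4.9 and 6.82 TPM in treated rats at Year 2. Its groups were apart at Years 0.5 and 1 and overlapped at Year 2 in both TPM and CPM, and the log2 fold changes were 0.92, 0.81 and 0.54 (SE 0.16, 0.16 and 0.24) at Years 0.5, 1 and 2, with FDRs of 0.00244, 0.00429 and 0.0951. The Kif20a entry shares 1910 bases with Cdc23 on the other strand. Kif11, which pushes the spindle poles apart, had log2 fold changes of 1.69, 0.97 and 1.06 with FDRs of 7.94e-05, 0.00351 and 0.00635, and Tpx2, which activates Aurka on the spindle, had log2 fold changes of 1.52, 0.82 and 1.07 with FDRs of 0.000962, 0.00859 and 0.0024.

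The 3 anaphase genes were all upregulated at Year 0.5, and Espl1 was at the later years as well. Cdc20, the activator of the anaphase-promoting complex, was 4.17, 5.54 and 6.44 TPM in control and 11, 11.4 and 9.9996 TPM in treated rats at Year 0.5, then 5.08, 5.23 and 6.11 TPM in control and 6.96, 10.9 and 8.76 TPM in treated rats at Year 1, and 4.7, 8.13 and 6.18 TPM in control and 8.08, 9.43 and 11.8 TPM in treated rats at Year 2. Its groups were apart at Years 0.5 and 1 and met at Year 2 in TPM, whereas in CPM they were apart at all 3 years. The log2 fold changes were 1.15, 0.94 and 0.84 (SE 0.19, 0.21 and 0.21) at Years 0.5, 1 and 2, with FDRs of 0.00141, 0.00701 and 0.00986.

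Pttg1, the securin that holds separase in check, was 2.53, 1.24 and 1.81 TPM in control and 6.6, 6.01 and 6.01 TPM in treated rats at Year 0.5, then 4.84, 2.18 and 2.27 TPM in control and 3.72, 5.41 and 5.78 TPM in treated rats at Year 1, and 4.03, 4.46 and 3.37 TPM in control and 4.12, 5.95 and 7.24 TPM in treated rats at Year 2. The groups were apart at Year 0.5 and overlapped at Year 1 in both TPM and CPM. At Year 2 they overlapped in TPM and not in CPM, and the Year 2 control rats lay above those of Year 0.5. Log2 fold changes of Pttg1 were 1.86, 0.93 and 0.75 (SE 0.29, 0.37 and 0.28) in order of time, with FDRs of 0.00131, 0.0728 and 0.0524. Between Year 0.5 and Year 2 it changed by 1.07 ± 0.35 in control rats and by -0.02 ± 0.31 in treated rats, and the effects differed by -1.10 ± 0.47 (unadjusted edgeR p 0.0311, FDR 0.299). Espl1, separase itself, had log2 fold changes of 1.77, 1.20 and 1.13 with FDRs of 0.000189, 0.00126 and 0.00375.

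Other genes of the pathway came from lists chosen by textbook function, also with earlier results of these data known. Of 43 other mitosis genes, 26, 23 and 19 were upregulated at Years 0.5, 1 and 2, 35, 34 and 28 were higher by FDR, and 1, 3 and 4 were lower by FDR, with median log2 fold changes of 1.22, 1.08 and 0.93. Of 30 other replication genes, 7, 6 and 3 were upregulated and 17, 16 and 14 were higher by FDR, while 0, 1 and 3 were lower, with medians of 0.46, 0.49 and 0.46. Of all genes, 6.07%, 6.13% and 8.17% were upregulated at the 3 years. By FDR 20.2%, 21.6% and 25.2% of all genes were higher and 18.6%, 19.6% and 24.0% lower. The 3 of 30 upregulated at Year 2 lay near the share of all genes. The effect was smaller at Year 2 than at Year 0.5 for 32 of the 43 and for 20 of the 30, and none passed FDR in that interaction with edgeR. At an unadjusted p below 0.05 there were 9 of the 43, all smaller, and 4 of the 30, of which 3 were smaller, and 13.8% of all genes passed that level in either direction, a share that the replication list did not exceed. Abundant genes of the mitosis list lay below its median, with log2 fold changes of -0.18, -0.06 and -0.61 for Stmn1, -0.02, 0.29 and 0.04 for Zwint, 0.30, 0.34 and 0.30 for Hmgb2 and 0.21, 0.22 and 0.47 for Smc4. In the replication list Pcna, the sliding clamp, had log2 fold changes of 0.38, 0.46 and 0.47 with FDRs of 0.00428, 0.003 and 0.000631, the ligase Lig1 0.37, 0.33 and 0.36, Rrm1 0.40, 0.53 and 0.52 and Gins2 -0.16, -0.24 and -0.40.

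The D-type cyclins, kinases and inhibitors, which act before the listed genes, held members of either direction. Of 17 found, 4, 3 and 3 were higher by FDR at Years 0.5, 1 and 2, where 20.2%, 21.6% and 25.2% of all genes were. By FDR 5, 4 and 7 were lower, against 18.6%, 19.6% and 24.0% of all genes, and most of these counts lay near those shares. Cdkn1a, the p21 inhibitor induced by p53, had log2 fold changes of 0.98, 0.48 and 1.17 with FDRs of 0.0103, 0.0606 and 2.75e-05. Cdkn1b (p27) had log2 fold changes of -0.58, -0.42 and -0.70 with FDRs of 0.00133, 0.00234 and 2.79e-05, Cdkn1c (p57) log2 fold changes of -0.80, -0.90 and -1.09 with FDRs of 0.000809, 0.00121 and 0.00346, and the p107 relative Rbl2 log2 fold changes of -0.40, -0.27 and -0.40 with FDRs of 0.00481, 0.0271 and 0.00179. Among the D-type cyclins, Ccnd2 had log2 fold changes of 0.33, 0.43 and 0.72 with FDRs of 0.0309, 0.00672 and 0.00106, Ccnd1 log2 fold changes of -0.33, -0.21 and -0.44 with FDRs of 0.00951, 0.0828 and 0.00727 and Ccnd3 log2 fold changes of -0.30, -0.33 and -0.66 with FDRs of 0.00751, 0.0119 and 0.00131. Their partner Cdk4 had log2 fold changes of 0.21, 0.30 and 0.28 with FDRs of 0.042, 0.0349 and 0.0111. Of the INK4 inhibitors, Cdkn2a had log2 fold changes of 1.40, 1.95 and 1.14 with FDRs of 0.0383, 0.00984 and 0.0913, and Cdkn2b and Cdkn2c were lower at Year 2 with log2 fold changes of -0.72 and -0.43 and FDRs of 0.000492 and 0.0158.

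Many markers of lung cell types also differed between treated and control rats. All 8 macrophage markers were higher by FDR at each year, and their summed TPM was 342 to 433 in control rats and 870 to 1221 in treated rats. Alveolar type 2 markers were higher for 8, 7 and 8 of 8 genes. Alveolar type 1 markers were lower for 6, 5 and 6 of 6, endothelial markers for 5 of 5 at each year, and T cell markers for 4, 2 and 5 of 6, with Cd4, which rat macrophages also carry, as the one that was higher. Of 6 B and plasma cell markers 2, 2 and 1 were higher and 4, 1 and 2 lower, of 5 fibroblast markers 2, 1 and 2 were higher and 2 lower at each year, and of 3 club cell markers none was higher and 2, 3 and 2 were lower. By FDR 20.2%, 21.6% and 25.2% of all genes were higher and 18.6%, 19.6% and 24.0% lower. Several of the B and plasma cell and fibroblast counts lay near those shares. Cd68 of macrophages had log2 fold changes of 2.44, 2.50 and 3.03 and Sftpc of type 2 cells 0.96, 0.97 and 1.00. The summed macrophage markers of the treated rats were 870 to 1020 TPM at Year 0.5 and 1141 to 1221 TPM at Year 2. The part of these cell types in the result was not tested.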

How the data were processed

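Bulk RNA-seq of lung pieces from 18 rats was analysed. Per the labels, the authors prepared the libraries with NEBNext Ultra II and made the counts per gene and the TPM with CLC Genomics Workbench 22.0.2 on Rnor_6.0, and both were used here as deposited. Strand-specific counting is not stated in the sources used here. The 36 columns of CPM and RPKM were not used, nor were columns of the authors' own comparisons (fold changes and p-values).

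Genes were matched by name. Counts were filtered (filterByExpr, minimum count 10, minimum total 15), TMM-normalised and tested in edgeR 4.0.16 (R 4.3.3) with glmQLFit and glmQLFTest, with Benjamini-Hochberg FDR over all genes. The 6 rats of each year were fitted apart (14315, 14345 and 14361 genes), and all 18 rats together (14843 genes) for interactions and for Year 2 against Year 0.5. SE was the absolute log2 fold change divided by the square root of F. Log2 CPM used a prior count of 2, and the CPM compared between rats for overlap used none. DESeq2 1.42.0, no filter, at least 10 counts in every rat, library size only, FDR alone, a replicate block and leaving out each rat were alternatives. The fits were tested on simulated data. Promoters came from RefSeq (GRCr8).

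Genes named with values in every rat were, per role, the highest in mean TPM and those with the largest and smallest difference of effect, the textbook genes Mki67, Top2a, Foxm1, Ccnb1 and Cdk1, and those upregulated at no year. Mcm5 and all single genes named without values in every rat were added after values were seen. The genes and lists were chosen with earlier results of these data known. Each rat was a separate animal, and no labels tie rats across groups.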

Additional observations from a re-analysis of the deposited data

Results flagged for a closer look

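No gene of the 50 had a treatment effect that differed between years at an FDR below 0.05. Among the marker genes of other lung cell types that were read beside them, the effect differed between years, by edgeR's interaction test over all genes, for 4. Over all genes, 1.31% passed FDR below 0.05 for Year 2 against Year 0.5 and 0.478% for Year 2 against Year 1. Msr1, a scavenger receptor of macrophages, had a larger effect at Year 2 than at Year 0.5 by 0.93 and than at Year 1 by 0.91 on the log2 scale. Mrc1, the macrophage mannose receptor, had a larger effect at Year 2 than at Year 1 by 1.06. Not all 8 macrophage markers went this way, as their highest log2 fold change was 6.22, 4.99 and 4.64 at Years 0.5, 1 and 2. Pdpn, a marker of alveolar type 1 cells, had an effect that was more negative at Year 2, by -0.48 against Year 0.5 and by -0.48 against Year 1. Col1a1, a collagen of fibroblasts, had an effect larger by 0.95 at Year 2 than at Year 1.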

How the results depend on the processing

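With at least 10 counts in every rat, the median log2 fold change at Year 0.5 was 1.15 (over 44 genes). No gene then differed between control rats of Years 2 and 0.5 with an absolute log2 difference above 1. Cdc6, the gene called with all genes kept, had a lowest count of 9 and was removed by this filter before testing. With library size only, it was 0.81 at Year 1 and 0.65 at Year 2, and 8 genes were upregulated at Year 2. By FDR alone, 42 genes were higher at Year 1 and 38 at Year 2, and 2 differed between control rats of Years 2 and 0.5. With DESeq2, 2 differed between these control rats at an FDR below 0.05 and an absolute log2 difference above 1. When each rat was left out in turn, 29 to 37 genes were upregulated at Year 0.5 (median 1.14 to 1.43), 17 to 25 at Year 1 (0.88 to 1.04) and 11 to 21 at Year 2 (0.76 to 0.91), with 11 without control rat 1 of Year 2. Between control rats of Years 2 and 0.5, 0 to 2 genes differed with an absolute log2 difference above 1, against 1 with all rats. The count was 0 without any 1 of the Year 0.5 control rats or without Year 2 control rat 1 or 2, and 2 without Year 1 control rat 1. The interactions and the change in treated rats stayed at 0 genes under every alternative run.

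With the rat number as a replicate block, 33, 21 and 17 genes were upregulated at Years 0.5, 1 and 2, and the median difference of effects between Years 2 and 0.5 was -0.40. Between control and treated rats of one year, the mean correlation of deviations was 0.007 over 9 pairs of the same number. It was -0.003 over 18 pairs of different number. Pairs across years were not examined, and the labels do not say whether rats of one number share anything else.

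Medians over time were examined after seeing the data. Leaving out each rat, the median difference of effects was -0.46 to -0.29, and that of treated rats -0.15 to 0.049, the last without rat 2 of Year 0.5. The effect was smaller at Year 2 for 42 to 46 of the 50 genes.

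Directions turned where values were near 0. With library size only, the log2 fold change of Kif23 at Year 2 was -0.057, and the differences of effect between Years 2 and 0.5 were -0.043 for Cdc45, -0.068 for Mcm3 and -0.017 for Mcm6. Mcm3 also had -0.020 with no filter and -0.0040 with DESeq2. Leaving out each rat, the log2 fold change ranged from -0.40 to 0.10 for Aurkb at Year 0.5, and at Year 1 from -0.21 to 0.22 for Cdc45, from -0.059 to 0.020 for Mcm7 and from -0.063 to 0.44 for Spc24. The difference of effects ranged from -0.30 to 0.15 for E2f3, from -0.088 to 0.16 for Cdc45, from -0.14 to 0.040 for Mcm2, from -0.077 to 0.083 for Mcm3, from -0.040 to 0.21 for Mcm6, from -0.082 to 0.063 for Mcm7, from -0.28 to 0.15 for Ccnb1, from -0.29 to 0.012 for Cdc25c and from -0.48 to 0.12 for Bub1b. The cause of these changes was not tested. A rat with fewer than 10 counts was found for 6 of the 50 genes.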
